A study of Mus musculus with 5 samples.

Results

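The genes described here are 9 serine protease inhibitor genes (serpins) of the mouse liver: Serpina3k, Serpina3m and Serpina3n of the Serpina3 family, Serpina1a, Serpina1b, Serpina1c, Serpina1d and Serpina1e of the Serpina1 family, and Serpina6. They were taken by symbol from a table of 18018 genes, and all 9 were in it. The set was chosen by the diet differences in level that these same data had shown, so those differences are given as a description. How many of the 9 the diet fit over all genes called is stated once, and nothing is read from it. Tests are reported for the position along the liver lobule, for its dependence on diet, and for lists of other genes. Those lists were also chosen with earlier results of these data known, so their diet tests are read as a description too.

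Hepatocytes of 5 male C57BL/6J mice, littermates aged 8 weeks at the start, were profiled one by one with Drop-seq, a droplet method that counts captured mRNA molecules by unique molecular identifiers (UMIs). The HFD group was 3 mice given a high fat diet for 12 weeks, and the LFD group was 2 mice kept on the regular diet for the same time. The labels give no further allele or agent, and do not state what the diets were made of. The labels give each library as 1 mouse, and the mouse is the replicate in the tests. The p-values come from limma voom, which pools the spread between mice over all genes and gives higher counts more weight. They are thus not a measure of the plain spread of a gene between these mice.

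Serpins are suicide inhibitors. A protease cuts the exposed reactive centre loop of the serpin, the loop folds into the body of the molecule, and the protease stays trapped. Hepatocytes secrete many of them into plasma. Serpina1 encodes alpha-1-antitrypsin, the main plasma inhibitor of neutrophil elastase in humans, and mice carry several copies of it. The mouse Serpina3 genes, which correspond to a single human antichymotrypsin gene, have also multiplied, and their copies differ most in the loop. Serpina6 encodes corticosteroid-binding globulin, a serpin that carries glucocorticoids in blood and does not act as an inhibitor.

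All 9 genes lie in 1 cluster on chromosome 12 (GRCm38), which holds 28 Serpina gene models, 5 of them pseudogenes, from 103614786 to 104414329. In GENCODE, Serpina6 (103646630 to 103657212), Serpina1b (103728156 to 103830373), Serpina1d (103763594 to 103773592), Serpina1a (103853589 to 103863562), Serpina1c (103894926 to 103904887) and Serpina1e (103946931 to 103958975) are on the minus strand. Serpina3k (104338486 to 104346144), Serpina3m (104338486 to 104394257) and Serpina3n (104406729 to 104414329) are on the plus strand. All 9 are protein-coding. The model of Serpina1d lies within the longer model of Serpina1b, and that of Serpina3k within the longer model of Serpina3m. The sources used here do not say how reads in such overlaps, or reads that match several copies, were counted.

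The coding sequence of the reactive centre loop is shown because the loop decides which protease a serpin can trap, and because it shows how alike the copies are. For the Serpina3 genes, capitals mark the codons between ends that the 3 genes share in position.
Serpina3k: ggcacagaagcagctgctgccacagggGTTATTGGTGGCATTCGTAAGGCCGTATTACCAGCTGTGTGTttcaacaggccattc
Serpina3m: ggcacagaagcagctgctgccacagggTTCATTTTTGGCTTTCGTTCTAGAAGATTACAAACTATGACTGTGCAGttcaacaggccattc
Serpina3n: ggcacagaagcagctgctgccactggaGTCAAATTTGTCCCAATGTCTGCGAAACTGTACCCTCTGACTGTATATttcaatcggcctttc

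For the Serpina1 genes, which align without gaps over 81 bases, capitals mark the bases unlike Serpina1c. Serpina1e has 12 such bases, Serpina1a 10, Serpina1b 8 and Serpina1d 5.
Serpina1a: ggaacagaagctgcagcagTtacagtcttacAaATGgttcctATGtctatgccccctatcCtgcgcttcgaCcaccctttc
Serpina1b: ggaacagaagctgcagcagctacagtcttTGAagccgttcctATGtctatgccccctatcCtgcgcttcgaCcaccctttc
Serpina1c: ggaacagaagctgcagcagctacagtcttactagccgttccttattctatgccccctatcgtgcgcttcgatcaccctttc
Serpina1d: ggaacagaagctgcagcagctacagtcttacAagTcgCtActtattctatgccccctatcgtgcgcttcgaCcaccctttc
Serpina1e: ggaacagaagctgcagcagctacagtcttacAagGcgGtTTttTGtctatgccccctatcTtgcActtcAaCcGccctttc

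Across the whole coding sequence the Serpina1 pairs were 96.3% to 98.5% identical and the Serpina3 pairs 83.1% to 91.7% identical. Drop-seq reads come from the 3′ end of a transcript, so the last 500 bases bear most on whether copies can be told apart. There the Serpina1 pairs were 79.2% to 96.0% identical, and the Serpina3 pairs 54.2% to 70.2%. Of all 50-base windows in those bases, 0% of Serpina3k, Serpina3m, Serpina3n and Serpina6 occurred in the transcripts of another gene. The same share was 16.2% for Serpina1e, 29.5% for Serpina1b, 38.6% for Serpina1c, 41.5% for Serpina1d and 55.4% for Serpina1a. The split of UMIs among Serpina1a to Serpina1d is therefore less certain than that of the other 5 genes.

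The table held 454 cells and 1499094 UMIs, and no barcode was shared between libraries. HFD mice 1, 2 and 3 gave 5, 208 and 25 cells with 27903, 656803 and 58470 UMIs. LFD mice 1 and 2 gave 132 and 84 cells with 446868 and 309050 UMIs. The labelled cell type was checked on 19 hepatocyte markers: each was found in over 50% of cells, and every cell had UMIs of at least 12 of them. HFD mouse 1 stood apart, with a median of 636 genes in its 5 barcodes at a median of 6598 UMIs, and with 1075 CPM of sinusoidal endothelial markers (2 of 11 markers), against 17.9 to 34.2 CPM in the other 4 mice. CPM scale the UMIs of each mouse to a total of 1000000. Erythroid markers came to 502, 13.7 and 291 CPM in HFD mice 1, 2 and 3, and to 6.71 and 3.24 CPM in LFD mice 1 and 2. At least 3 UMIs of a non-hepatocyte marker list were found in 4 of the 5 barcodes of HFD mouse 1. In HFD mice 2 and 3 this held for 7 of 208 and 1 of 25 cells. In LFD mice 1 and 2 it held for 7 of 132 and 5 of 84 cells. The part of the non-hepatocyte transcripts in the results was not tested. Fits were made for all 5 mice and again for 4 mice, without HFD mouse 1.

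Together the 9 genes took 1.95%, 1.74% and 1.58% of all UMIs in HFD mice 1, 2 and 3, against 3.04% and 2.94% in LFD mice 1 and 2. Every HFD mouse lay below both LFD mice. A UMI stands for 1 captured molecule at the 3′ end whatever the length of the transcript, so CPM of different genes are compared below as captured molecules. On that scale, Serpina3k and Serpina1e were the highest of the 9 in both LFD mice, and Serpina1c was the highest in HFD mice 1 and 3. In HFD mouse 2, Serpina3k and Serpina1c were about level. The Serpina1 copies share unequal parts of their 3′ ends, and how shared reads were counted is not known. Levels of different Serpina1 copies may therefore not be on the same scale.

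**Figure D1:**
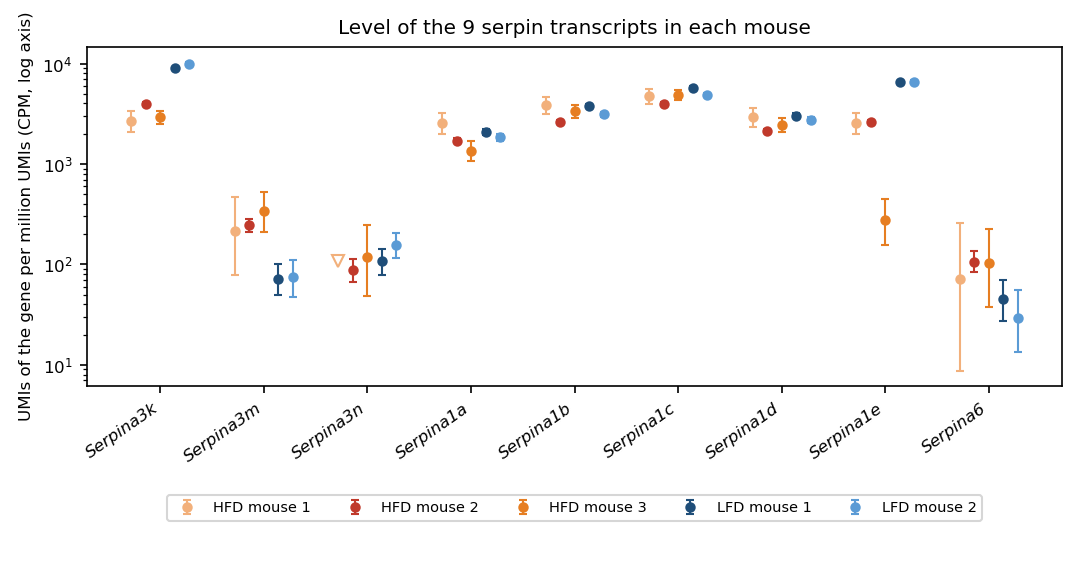
Level of each serpin transcript in each mouse, in CPM on a log axis, with the 3 HFD mice left of the 2 LFD mice and bars for the exact 95% Poisson interval of the count. Serpina3k and Serpina1e were lower and Serpina3m and Serpina6 higher in every HFD mouse than in every LFD mouse; the open triangle marks the limit of 108 CPM that a count of 0 allows for Serpina3n in HFD mouse 1.

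Serpina3k encodes contrapsin, a trypsin inhibitor of mouse plasma. It had 2652, 3975 and 2925 CPM in HFD mice 1, 2 and 3, against 9014 and 9901 CPM in LFD mice 1 and 2. The 3 HFD mice were close to each other and all far below the LFD mice. Its mean level was 3184 ± 699 CPM in HFD mice (SD, n = 3) and 9458 ± 628 CPM in LFD mice (SD, n = 2). By rank, Serpina3k was transcript number 49, 22 and 34 of its library in HFD mice 1, 2 and 3, and number 11 in both LFD mice. The log2 difference of HFD over LFD (limma voom on UMIs summed per mouse) was -1.47 (SE 0.24) in 5 mice and -1.43 (SE 0.16) in 4 mice.

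Serpina3m, the neighbouring gene, moved the other way. It had 215, 245 and 342 CPM in HFD mice 1, 2 and 3, against 71.6 and 74.4 CPM in LFD mice 1 and 2. The groups did not overlap, although the levels rest on 6, 161 and 20 UMIs in the HFD mice and on 32 and 23 UMIs in the LFD mice. The log2 difference was 1.81 (SE 0.44) in 5 mice and 1.84 (SE 0.25) in 4 mice. The number of Serpina3k UMIs for each Serpina3m UMI was 12.3, 16.2 and 8.55 in HFD mice 1, 2 and 3, against 126 and 133 in LFD mice 1 and 2. Serpina3m remained the minor copy in every mouse. It made up 7.50%, 5.69% and 10.1% of the Serpina3 UMIs in HFD mice 1, 2 and 3 and 0.779% and 0.735% in LFD mice 1 and 2.

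Serpina3n, an acute phase serpin that inhibits granzyme B and leukocyte elastase in mice, showed no such separation. HFD mouse 1 had 0 UMIs, which allows a level of up to 108 CPM, and HFD mice 2 and 3 had 88.3 and 120 CPM, against 107 and 155 CPM in LFD mice 1 and 2. HFD mouse 3 lay between the LFD mice. The log2 difference was -0.46 (SE 0.28) in 4 mice and -0.78 (SE 0.61) in 5 mice, where the value depends on how the 0 is treated. The sum of the 3 genes followed Serpina3k, with 2867, 4309 and 3386 CPM in HFD mice 1, 2 and 3 and 9193 and 10131 CPM in LFD mice 1 and 2.

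Among the alpha-1-antitrypsin copies, Serpina1e stood apart. The mouse protein, unlike those of Serpina1a and Serpina1b, is not known to inhibit neutrophil elastase. It had 2545, 2629 and 274 CPM in HFD mice 1, 2 and 3, against 6492 and 6624 CPM in LFD mice 1 and 2. The LFD mice were almost level, while HFD mouse 3, with 16 UMIs in 25 cells, was far below the other HFD mice. The log2 difference was -2.08 (SE 0.55) in 5 mice and -2.27 (SE 0.49) in 4 mice. Single mice moved this value: leaving out HFD mouse 2 gave -3.02, and leaving out HFD mouse 3 gave -1.31. HFD mouse 3 is the library whose raw-read name in the labels has another form than the rest. Without HFD mouse 3 the other separated genes had log2 differences of -1.35 (Serpina3k), 1.70 (Serpina3m) and 1.36 (Serpina6).

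The other alpha-1-antitrypsin copies overlapped between the diets. Serpina1c, the highest of the 4, had 4731, 3960 and 4891 CPM in HFD mice 1, 2 and 3 and 5762 and 4860 CPM in LFD mice 1 and 2. Serpina1b, which inhibits neutrophil elastase, had 3835, 2597 and 3335 CPM in HFD mice and 3771 and 3119 CPM in LFD mice. Neither was ordered by diet. Serpina1d had 2939, 2136 and 2446 CPM in HFD mice and 3023 and 2760 CPM in LFD mice. Serpina1a, the other elastase inhibitor, had 2545, 1702 and 1351 CPM in HFD mice and 2095 and 1844 CPM in LFD mice. The 4 log2 differences lay between -0.22 (SE 0.29, Serpina1a) and -0.34 (SE 0.25, Serpina1d) in 5 mice, and between -0.30 (SE 0.15, Serpina1b) and -0.39 (SE 0.14, Serpina1d) in 4 mice. Summed, these 4 copies had 14049, 10396 and 12023 CPM in HFD mice 1, 2 and 3 and 14651 and 12584 CPM in LFD mice 1 and 2, so the ranges overlapped. With Serpina1e added they did not, at 16593, 13025 and 12297 CPM in HFD mice and 21143 and 19207 CPM in LFD mice.

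The make-up of the alpha-1-antitrypsin pool shows the same contrast within each library, where library size cancels. Serpina1e held 15.3%, 20.2% and 2.23% of the Serpina1 UMIs in HFD mice 1, 2 and 3, against 30.7% and 34.5% in LFD mice 1 and 2. The exact 95% binomial intervals were 12.2% to 18.9%, 19.3% to 21.1% and 1.28% to 3.59% in the HFD mice and 29.8% to 31.6% and 33.3% to 35.7% in the LFD mice. These intervals cover counting error only. In UMIs of Serpina1e for each UMI of Serpina1c, the ratio was 0.538, 0.664 and 0.0559 in HFD mice and 1.13 and 1.36 in LFD mice. By counted UMIs the order of the 2 copies was thus the opposite in the 2 diets. Of their 50-base windows, 16.2% (Serpina1e) and 38.6% (Serpina1c) occurred in another gene. Which copy is higher within a mouse therefore depends on how shared reads were counted. Serpina1c held 28.5%, 30.4% and 39.8% of the pool in HFD mice and 27.3% and 25.3% in LFD mice.

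**Figure D2:**
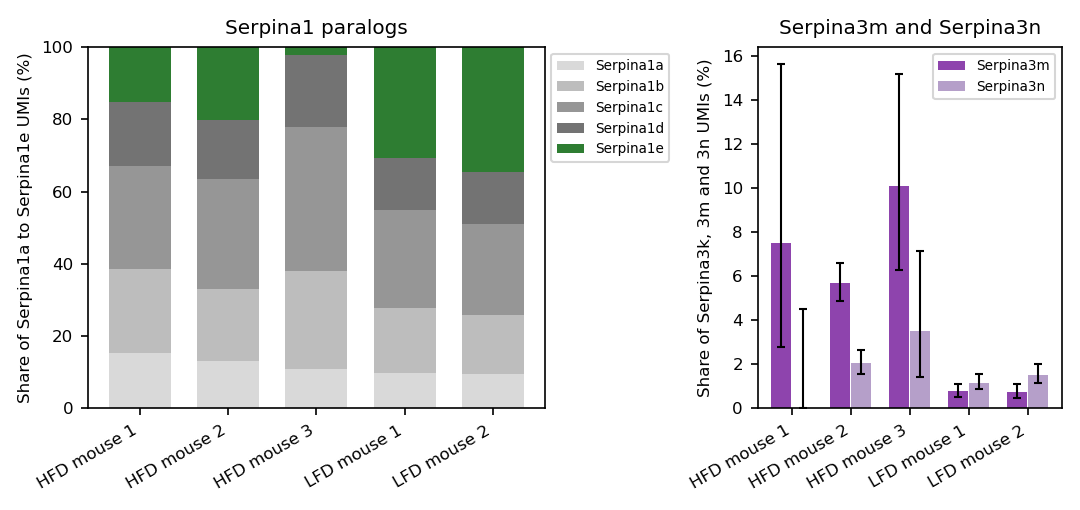
Left, share of each gene in the summed UMIs of Serpina1a to Serpina1e per mouse, in percent, with Serpina1e in green; right, share of Serpina3m and Serpina3n in the Serpina3 UMIs, with exact 95% binomial intervals. Serpina1e held 2.23% to 20.2% in the 3 HFD mice and 30.7% to 34.5% in the 2 LFD mice, and Serpina3m held 5.69% to 10.1% in HFD mice and under 1% in LFD mice.

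Serpina6 was low in every library and higher in HFD mice. It had 71.7, 107 and 103 CPM in HFD mice 1, 2 and 3, against 44.8 and 29.1 CPM in LFD mice 1 and 2. The value of HFD mouse 1 rests on 2 UMIs, with an exact 95% Poisson interval of 8.68 to 259 CPM, which spans both LFD mice. HFD mouse 3 had 6 UMIs, HFD mouse 2 had 70, and LFD mice 1 and 2 had 20 and 9. The log2 difference was 1.44 (SE 0.50) in 5 mice and 1.48 (SE 0.33) in 4 mice.

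All 9 genes passed the filter on low counts in both fits. At a Benjamini-Hochberg adjusted p under 0.05, limma voom called 1 of the 9, Serpina3k, in 5 mice, where it called 0.221% of the 3614 genes tested. The call was lost when HFD mouse 2, HFD mouse 3, LFD mouse 1 or LFD mouse 2 was left out, with log2 differences of -1.68, -1.35, -1.49 and -1.37 in that order. In 4 mice it called 4 of the 9 (Serpina3k and Serpina1e lower, Serpina3m and Serpina6 higher), where it called 3.35% of 3670 genes. By level alone the diets did not overlap for those same 4 genes, while 23.2% of all genes tested in 5 mice did not overlap. Since the set was chosen with this contrast known, nothing is read from these counts. The table smoothed over similar cells, which the authors deposited beside the unsmoothed one, gave every gene the same sign but much smaller log2 differences. For example, Serpina3k differed by -0.13, Serpina1e by -0.12 and Serpina3m by 0.06 there.

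**Figure D3:**
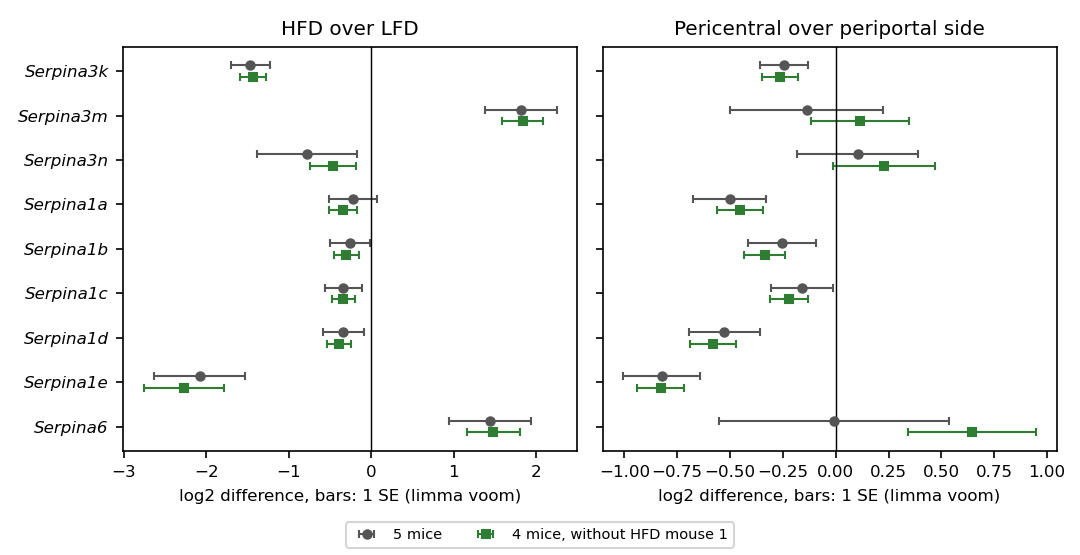
Left, log2 difference of HFD over LFD, and right, log2 difference of the pericentral over the periportal side, for each gene with 1 SE (limma voom), in 5 mice (circles) and in 4 mice without HFD mouse 1 (squares). On the left, Serpina3k and Serpina1e lie furthest below 0 and Serpina3m and Serpina6 above it; on the right, Serpina1e lies furthest below 0 at -0.82 in 5 mice and -0.83 in 4 mice.

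Single cells showed how these levels were made up. Before any thinning to equal depth, Serpina3k was found in 100% of cells in every mouse, all 454 of them. Its median level per cell was 22.7, 37.9 and 26.0 UMIs per 10000 in HFD mice 1, 2 and 3, against 87.5 and 96.6 in LFD mice 1 and 2. The distributions were shifted as a whole: the upper quartile in HFD mice reached 33.7, 48.8 and 41.9, below the lower quartiles of 71.3 and 76.3 in LFD mice.

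Serpina1e varied from cell to cell more than Serpina1c in HFD mouse 2 and both LFD mice. Its median was 13.4, 20.8 and 0 UMIs per 10000 in HFD mice 1, 2 and 3, against 63.8 and 56.8 in LFD mice 1 and 2. The Pearson dispersion, which is 1 for a gene that varies only by counting, was 6.37 in HFD mouse 2 and 4.62 and 6.59 in LFD mice 1 and 2. For Serpina1c it was 1.68 in HFD mouse 2 and 1.95 and 1.54 in LFD mice 1 and 2. In HFD mouse 1, with 5 cells, it was 15.8 for Serpina1e and 2.45 for Serpina1c. In HFD mouse 3, where Serpina1e was low, its dispersion was 2.03, against 1.86 for Serpina1c, 2.27 for Serpina1b and 2.47 for Serpina1d. Serpina1e averaged 0.64 UMIs a cell there and Serpina1c 11.4. This dispersion rises with the mean count, so the values of HFD mouse 3 do not compare the genes at a like level. Cells high and low in Serpina1e were present in the same liver in HFD mouse 2 and both LFD mice.

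**Figure D4:**
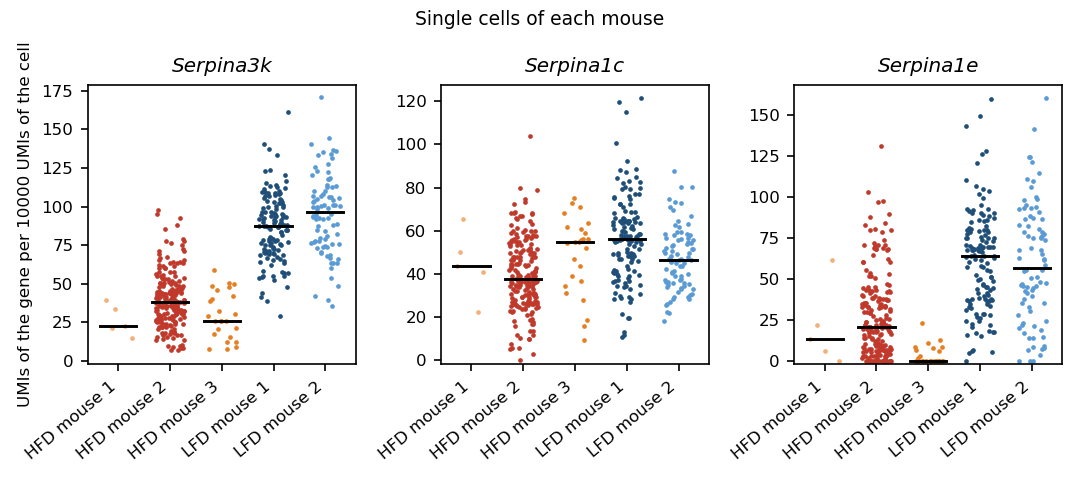
Each point is a cell, in UMIs of the gene per 10000 UMIs of the cell, for Serpina3k, Serpina1c and Serpina1e, with the 3 HFD mice left of the 2 LFD mice and a bar at the median. Serpina3k medians were 22.7 to 37.9 in HFD mice and 87.5 and 96.6 in LFD mice; Serpina1c overlapped, and Serpina1e spread widely within HFD mouse 2 and both LFD mice.

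The share of cells with at least 1 UMI depends on depth, so each cell was also thinned to 1728 UMIs, which left 5, 134 and 14 cells in HFD mice 1, 2 and 3 and 114 and 74 cells in LFD mice 1 and 2. Every cell carried hepatocyte markers, so no cell type that should lack these genes was at hand to measure free RNA in the droplets. Serpina3m was found in 60.0%, 45.2% and 44.0% of cells in HFD mice 1, 2 and 3, against 19.7% and 21.4% in LFD mice 1 and 2. After thinning the shares were 40%, 28.4% and 35.7% in HFD mice and 12.3% and 12.2% in LFD mice, and the diets did not overlap. Thinned further, to 1343 UMIs, the shares were 0%, 28.5% and 25% in HFD mice and 7.75% and 8.54% in LFD mice. The diets overlapped there, through the 5 cells of HFD mouse 1.

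Serpina1e was found in 80%, 89.9% and 40% of cells in HFD mice 1, 2 and 3, against 99.2% and 96.4% in LFD mice 1 and 2. After thinning the shares were 80%, 85.8% and 21.4% in HFD mice and 98.2% and 97.3% in LFD mice. All HFD mice stayed below both LFD mice. Serpina3n was found in 0%, 21.6% and 24.0% of cells in HFD mice and 28% and 38.1% in LFD mice before thinning, and in 0%, 16.4% and 21.4% in HFD mice and 15.8% and 24.3% in LFD mice after it, when the groups overlapped.

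Serpina6 was found in 20%, 23.6% and 24.0% of cells in HFD mice 1, 2 and 3, against 12.9% and 10.7% in LFD mice 1 and 2. After thinning the shares were 0%, 16.4% and 7.14% in HFD mice and 9.65% and 8.11% in LFD mice, so the separation was not kept at equal depth. Serpina1a to Serpina1d were found in 80% to 100% of cells of every mouse, before thinning and at 1728 UMIs. Serpina3k, found in all cells before thinning, was at 1728 UMIs found in 100%, 100% and 92.9% of cells in HFD mice 1, 2 and 3. Both LFD mice stayed at 100%. With 3 mice against 2, an exact two-sided permutation test cannot go below 0.1, and no test of shares was run.

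Position along the lobule was not used to choose the genes and was tested. Blood enters the lobule at the portal vein and leaves at the central vein, and hepatocytes of the periportal and pericentral ends make different proteins. Within each mouse, cells were ordered by the ratio of 20 pericentral to 20 periportal score genes, none of them a serpin described here, and divided at the median. In HFD mice 2 and 3, Cyp2e1, a pericentral gene of the score, had 3093 and 2112 CPM on the pericentral side and 203 and 257 CPM on the periportal side. In LFD mice 1 and 2 it had 2831 and 3011 CPM on the pericentral side and 438 and 166 CPM on the periportal side. In HFD mouse 1 the sides were 3 and 2 cells, with 237 and 0 CPM, and gave little separation.

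Serpina1e was the most zoned of the 9, and lower on the pericentral side. That side had 1185, 1639 and 288 CPM in HFD mice 1, 2 and 3, against 4623, 3803 and 257 CPM on their periportal side. In LFD mice 1 and 2 the pericentral side had 5273 and 4996 CPM and the periportal side 7294 and 7878 CPM. It was lower on the pericentral side in 4 of 5 mice, among them HFD mouse 1, whose sides were little separated. In HFD mouse 3, where the sides held 9 and 7 UMIs, it was level. With the axis divided into 3 bins of cells, HFD mouse 2 had 1085, 2865 and 4105 CPM from the pericentral to the periportal bin. LFD mouse 1 had 4356, 6789 and 7552 CPM and LFD mouse 2 had 3437, 7194 and 8128 CPM, so the level climbed through the middle bin in each.

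Serpina1d was lower on the pericentral side in 5 of 5 mice, among them HFD mouse 1, whose sides were little separated. It had 2549, 1771 and 1632 CPM on the pericentral side of HFD mice 1, 2 and 3, against 3535, 2569 and 3381 CPM on the periportal side. In LFD mice 1 and 2 it had 2780 and 2186 CPM on the pericentral side and 3183 and 3203 CPM on the periportal side. Serpina1a was also lower on the pericentral side in 5 of 5 mice, by a log2 difference of -0.27 to -1.67 per mouse.

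In the fit of 4 mice, with mouse as a block, 5 of the 9 genes were called lower on the pericentral side, where 4.05% of 1975 genes were called in that direction, at an adjusted p under 0.05 from limma voom. These were Serpina1e (log2 difference -0.83, SE 0.11, adjusted p = 7.81e-07), Serpina1d (-0.58, SE 0.11, adjusted p = 0.000292), Serpina1a (-0.45, SE 0.11, adjusted p = 0.00495), Serpina1b (-0.34, SE 0.097, adjusted p = 0.0214) and Serpina3k (-0.26, SE 0.085, adjusted p = 0.0457). Serpina1c did not pass (-0.22, SE 0.091, adjusted p = 0.142), nor did Serpina6 (0.64, SE 0.30, adjusted p = 0.22), Serpina3n (0.23, SE 0.24) or Serpina3m (0.11, SE 0.23). In 5 mice limma voom called 0 of the 9, of which 3 had an unadjusted p under 0.05, and it called 0.122% of 1642 genes. Serpina1e there had a log2 difference of -0.82 (SE 0.18) with an adjusted p of 0.259 and an unadjusted p of 0.00205, Serpina1d -0.53 (SE 0.17, adjusted p = 0.594), and Serpina1a -0.50 (SE 0.17, adjusted p = 0.657). The other log2 differences in 5 mice were -0.26 (SE 0.16) for Serpina1b, -0.25 (SE 0.11) for Serpina3k, -0.16 (SE 0.15) for Serpina1c, -0.14 (SE 0.36) for Serpina3m, 0.10 (SE 0.29) for Serpina3n and -0.01 (SE 0.54) for Serpina6. Serpina3m and Serpina6 thus changed sign with HFD mouse 1. The calls along the axis therefore hold only with HFD mouse 1 left out. They also rest on spread pooled over all genes and on more weight for higher counts. Per mouse, Serpina1e differed by -1.21 and 0.16 in HFD mice 2 and 3, and by -0.47 and -0.66 in LFD mice 1 and 2. Its SE of 0.11 is therefore not the plain spread of these values. The sizes of Serpina1e, Serpina1d, Serpina1a and Serpina3k were nearly the same in both fits.

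**Figure D5:**
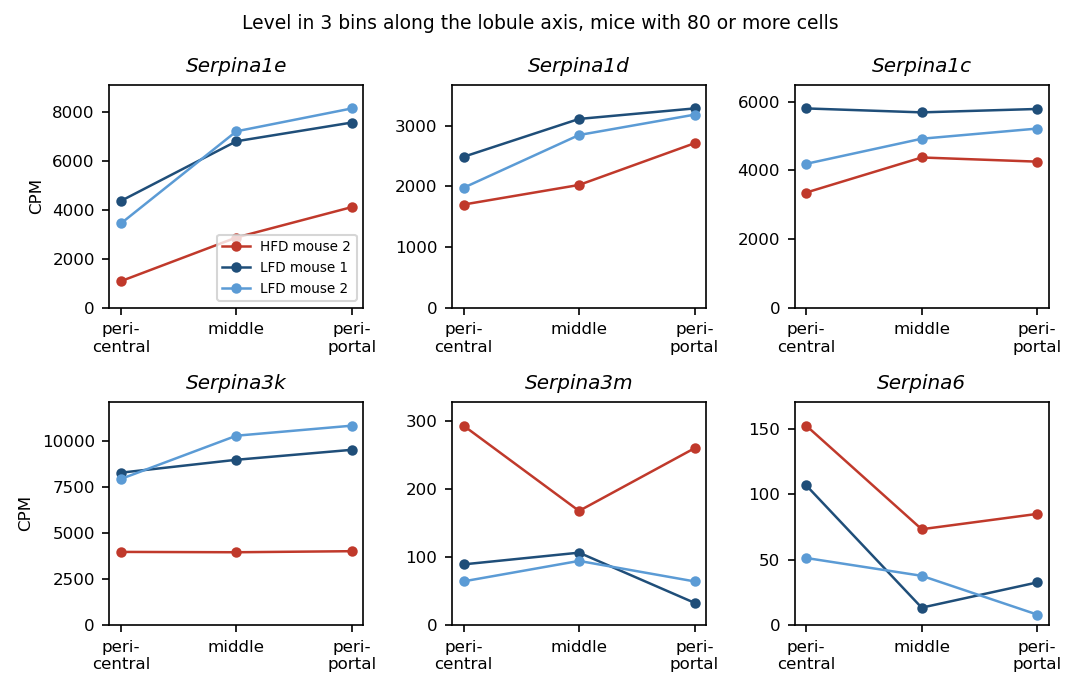
Level in CPM in 3 bins of cells along the lobule axis, from the pericentral to the periportal bin, in the 3 mice with 80 or more cells (HFD mouse 2 in red, LFD mice 1 and 2 in blue). Serpina1e and Serpina1d climb toward the periportal bin in all 3 mice, Serpina3k is level in HFD mouse 2, and Serpina3m and Serpina6 rest on few UMIs.

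Serpina3k varied less along the axis than Serpina1e, Serpina1d and Serpina1a in both fits. In 3 bins from pericentral to periportal it had 8266, 8967 and 9508 CPM in LFD mouse 1. LFD mouse 2 had 7926, 10273 and 10818 CPM, while HFD mouse 2 was level at 3967, 3949 and 4007 CPM. By side, its levels were as follows. It had 2489, 3899 and 2879 CPM on the pericentral side of HFD mice 1, 2 and 3, against 2901, 4066 and 2977 CPM on the periportal side. In LFD mice 1 and 2 it had 8426 and 8609 CPM on the pericentral side and 9401 and 10898 CPM on the periportal side. Both sides of every HFD mouse lay below both sides of every LFD mouse. Serpina6 had 126 and 128 CPM on the pericentral side of HFD mice 2 and 3, against 83.2 and 73.5 CPM on the periportal side, and 67.7 and 37.2 CPM on the pericentral side of LFD mice 1 and 2, against 29.7 and 22.9 CPM on the periportal side. It was higher on the pericentral side in these 4 mice, with 2 to 45 UMIs a side, and did not pass the test. HFD mouse 1 went the other way, with 0 UMIs on the pericentral side and 2 UMIs (181 CPM) on the periportal side, and the log2 difference of 0.64 in 4 mice was -0.01 in 5 mice.

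Whether the axis difference itself depended on diet was tested as an interaction. In 4 mice limma voom called 0 of the 9, of which 1 had an unadjusted p under 0.05, and it called 0.203% of 1975 genes. Serpina1e had the smallest p of the 9, with a log2 interaction of -0.62 (SE 0.21, unadjusted p = 0.00382, adjusted p = 0.378, limma voom), and -0.58 (SE 0.37) in 5 mice. Its axis difference per mouse was -1.96, -1.21 and 0.16 in HFD mice 1, 2 and 3 and -0.47 and -0.66 in LFD mice 1 and 2, so the HFD mice did not share a direction. In 5 mice limma voom called 0 genes of all those tested for the interaction, and 7 had an unadjusted p under 0.05.

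Across the cells of 1 mouse the 9 genes varied largely apart. Pearson r between the deposited log values was averaged over the 4 mice with 20 or more cells, for 36 pairs. It was highest for Serpina1a with Serpina1d, at 0.286, and ranged from 0.183 to 0.377 over the 4 mice. Serpina1b with Serpina1e averaged 0.243 and Serpina1d with Serpina1e 0.239, with HFD mouse 3 at -0.06 and 0.02. Serpina3k with Serpina3m averaged 0.123. All points of a mouse share a library, and low counts hold such values near 0.

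Of 1148 other genes found in at least 25% of cells, the most like the summed Serpina1 genes across cells were Mup3, a major urinary protein (mean r 0.598, 4 mice), Alb, serum albumin (0.548), and Fgb, fibrinogen beta (0.534). The median over those genes was -0.003. For Serpina3k the nearest were Trf, transferrin (0.293), Fgg, fibrinogen gamma (0.284), and C8a, a complement component (0.256). Over the 4 mice r ran from 0.04 to 0.50 for Trf, 0.11 to 0.39 for Fgg and 0.15 to 0.55 for C8a. For Serpina6, with 107 UMIs in all, they were Aqp9, a glycerol channel (0.243), Cyp2c44, a cytochrome P450 (0.209), and Actb, cytoplasmic actin (0.202). Their r ran from 0.004 to 0.48 (Aqp9), 0.06 to 0.37 (Cyp2c44) and 0.16 to 0.29 (Actb), so some likeness was nearly absent in single mice. These are descriptions of shared variation, and the part of depth and of the lobule axis in them was not tested.

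Promoter sequences, which RefSeq gives for GRCm38.p6, were matched for 6 of the 9 genes (Serpina1a to Serpina1e and Serpina3n). Those of Serpina1c and Serpina1e are shown because the order of these copies by counted UMIs was opposite in the 2 diets. Each is the 250 bases before the annotated start, on the minus strand, of the windows chr12:103904901-103905200 (Serpina1c) and chr12:103956848-103957147 (Serpina1e), with the 6 letters GTTAAT, part of the site of the liver factor HNF1, in capitals.
Serpina1c: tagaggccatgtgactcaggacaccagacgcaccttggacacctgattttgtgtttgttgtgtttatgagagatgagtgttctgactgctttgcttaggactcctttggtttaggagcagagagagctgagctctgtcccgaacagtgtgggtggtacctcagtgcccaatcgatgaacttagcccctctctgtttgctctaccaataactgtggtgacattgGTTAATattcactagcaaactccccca
Serpina1e: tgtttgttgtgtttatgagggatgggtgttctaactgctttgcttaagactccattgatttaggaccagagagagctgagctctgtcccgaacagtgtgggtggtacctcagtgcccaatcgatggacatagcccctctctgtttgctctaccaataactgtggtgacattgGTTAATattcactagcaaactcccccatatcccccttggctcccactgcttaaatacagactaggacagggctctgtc

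The annotated start of Serpina1e lies further downstream, and where the 2 windows overlap they were 95.2% identical over 249 columns. GTTAAT was found once in each of the 5 Serpina1 promoters and not in that of Serpina3n, and in 7.10% of 32851 mouse promoters of the same length. TGTTCT, part of the site of the glucocorticoid receptor, was found once in each of the 6 promoters and in 19.0% of all. The C/EBP pattern TTNNGNAA was found in the promoters of Serpina1a, Serpina1b, Serpina1d, Serpina1e and Serpina3n and in 40.7% of all. The STAT pattern TTCNNNGAA (8.30% of all), TATAAA (13.6%) and the HNF4 pattern CAAAGTCCA (0.475%) were in none of the 6. Both strands were searched, motifs were counted without regard to overlap with each other, and a match is a description of letters only.

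Genes that share a role with these serpins were compared by diet in lists drawn from general knowledge, with limma voom. The lists were chosen with earlier results of these data known, so their diet differences and calls are given as a description. Beside each count of 0 called in 5 mice stands the number with an unadjusted p under 0.05. Of 9 other serpins tested, 8 had a log2 difference below 0 and 0 were called (0 unadjusted), with a median of -0.64 against -0.06 over all genes. Examples are Serpinf2, alpha-2-antiplasmin, at -0.64 (SE 0.35) and Serping1, the inhibitor of complement C1, at -0.69 (SE 0.38). In 4 mice all 9 were below 0 and again 0 were called (3 unadjusted), with a median of -0.37 against 0.002 over all genes. Of 17 other plasma protease inhibitors and binders tested, 13 were below 0 and 0 were called (0 unadjusted), with a median of -0.35 that was 0.004 without HFD mouse 2. In 4 mice 1 was called, Ahsg, fetuin-A, at -0.54 (SE 0.14, adjusted p = 0.0481, limma voom), with 6451, 2905 and 3215 CPM in HFD mice 1, 2 and 3 and 4675 and 3941 CPM in LFD mice 1 and 2.

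Acute phase genes, which interleukin-6 drives together with Serpina3n, were mixed. Of 23 tested, 16 were below 0, with a median of -0.16, and 1 was called. That gene was Orm1, an orosomucoid, at 179, 455 and 599 CPM in HFD mice and 1786 and 1686 CPM in LFD mice (log2 difference -2.10, SE 0.37, adjusted p = 0.0421, limma voom). In 4 mice Orm1 (-1.84, SE 0.17), Saa1, serum amyloid A1 (-1.44, SE 0.31), and Hpx, hemopexin (-1.13, SE 0.25), were called lower, at an adjusted p under 0.05 (limma voom). Saa1 had 0, 62.4 and 257 CPM in HFD mice 1, 2 and 3 and 222 and 188 CPM in LFD mice. HFD mouse 3 thus lay above both LFD mice for Saa1. Hpx had 4229, 991 and 2771 CPM in HFD mice and 3104 and 2941 CPM in LFD mice, so HFD mouse 1 lay above the LFD mice. Hamp, hepcidin, rose in 4 mice (1.49, SE 0.33), with 2330, 1063 and 2326 CPM in HFD mice and 745 and 291 CPM in LFD mice.

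Of 6 growth hormone and STAT5 genes tested, 5 were below 0, with a median of -0.84, and 1 was called. The median was -0.05 without a filter on low counts and -1.68 with limma-trend on log2(CPM + 1). Egfr, the epidermal growth factor receptor, fell (-2.56, SE 0.45, adjusted p = 0.0421, limma voom), on 1, 52 and 3 UMIs in HFD mice and 185 and 119 UMIs in LFD mice. In 4 mice Onecut1, the factor HNF6, also fell (-3.22, SE 0.63). It had 1, 8 and 0 UMIs in HFD mice 1, 2 and 3 and 43 and 40 UMIs in LFD mice. Of 16 glucocorticoid response genes, 12 were below 0 (median -0.25) and 0 were called (2 unadjusted). In 4 mice Dusp1, a MAP kinase phosphatase, rose (2.42, SE 0.40). Dusp1 had 1, 71 and 11 UMIs in HFD mice 1, 2 and 3 and 8 and 9 UMIs in LFD mice. Of 15 hepatocyte transcription factors, 9 were above 0 (median 0.09, and -0.24 once the 5% deepest cells were left out) and 0 were called (0 unadjusted). In 4 mice Nr1i3, the receptor CAR, was called higher (1.36, SE 0.28) and Dbp, a circadian factor, lower (-1.86, SE 0.38). Nr1i3 had 35.8, 146 and 222 CPM in HFD mice 1, 2 and 3 and 69.4 and 51.8 CPM in LFD mice. HFD mouse 1, left out of that fit, thus lay below both LFD mice. Dbp had 0, 18.3 and 137 CPM in HFD mice and 87.3 and 61.5 CPM in LFD mice, so HFD mouse 3 lay above both. Of 23 genes of export from the endoplasmic reticulum and its quality control, which secreted serpins pass through, 13 were below 0 (median -0.06, and 0.10 without HFD mouse 2) and 0 were called (1 unadjusted). Sdf2l1, a chaperone cofactor, was at -1.48 (SE 0.64), on 0, 20 and 0 UMIs in HFD mice and 20 and 23 UMIs in LFD mice. Of 12 target proteases and partners, 8 were below 0 (median -0.22, and 0.05 without HFD mouse 2) and 0 were called (0 unadjusted), with Hgfac, the activator of hepatocyte growth factor, at 0.71 (SE 0.47).

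Along the lobule axis, in 4 mice, the same lists held 18 genes called lower on the pericentral side, as 5 of the serpins were. Of all 1975 genes tested in that fit, 4.05% were called in that direction. Among the other serpins this was Serpina12, vaspin (log2 difference -0.95, SE 0.20, adjusted p = 0.000872, limma voom), 1 of 9 tested. Among the protease inhibitors it was 4 of 16, with Kng1, kininogen, at -0.63 (SE 0.11), and among the acute phase genes 6 of 18, with Fgb at -0.71 (SE 0.088) and Hpx at -0.84 (SE 0.12). It was also 4 of 13 glucocorticoid response genes, 2 of 21 genes of the endoplasmic reticulum and 1 of 12 target proteases and partners. None of the 5 growth hormone and STAT5 genes or the 10 hepatocyte transcription factors was called in that direction. The only list gene called higher on the pericentral side was Nr1i3 (2.69, SE 0.37). In 5 mice limma voom called 0 of the 93 list genes tested along the axis, and 11 had an unadjusted p under 0.05.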

How the data were processed

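Drop-seq libraries of hepatocytes from 3 HFD and 2 LFD mice were analysed, with mouse and diet taken from the titles of the samples. The build mm10 and the tool STAR 2.6.0a were used, per the submitters' processing notes; the sources used here do not give the annotation, cell filter or counting of shared reads. The table deposited by the authors holds the natural log of 1 plus UMIs per 10000 UMIs of the cell. Back-transformed, 100% of values above 0 gave whole UMIs (tolerance 0.001), which were summed per mouse. A second deposited table, smoothed over similar cells and also on the natural log scale, served for comparison. All columns were mapped to a mouse, and 0 were left out.

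Diet, lobule side (mouse as a block) and their interaction were tested with limma voom 3.58.1 (R 4.3.3) with trimmed-mean factors over all genes that reached, in at least 2 mice, the CPM equal to 10 UMIs in the median library (lobule sides: in as many sums as there are mice) and 15 UMIs in total. The Benjamini-Hochberg threshold was 0.05. The fits were tested on simulated data. Intervals are exact, Poisson for counts and binomial for shares (95%), and the limit of a count of 0 is 3 counts. No doublet caller was run. The members and the lists were chosen with earlier results of these data known. All members are named; of each list the text names genes called for diet or, with none, up to 2 of smallest p. Alternatives were library-size scaling, log means, other filters, cell subsets, other axis divisions and leaving out each mouse. Loop, coding and 3′ sequences came from GENCODE vM21 transcripts and promoters from RefSeq.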

Additional observations from a re-analysis of the deposited data

How the results depend on the processing

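Serpina3k, Serpina3m, Serpina3n, Serpina1c, Serpina1d, Serpina1e and Serpina6 kept the sign of their diet difference under the 15 alternatives run. Apart from the smoothed table, the log2 difference ran from -1.95 to -1.35 for Serpina3k, -3.02 to -1.31 for Serpina1e, 0.80 to 2.06 for Serpina3m and 0.24 to 1.83 for Serpina6, where the lowest values of the last 2 genes came from means of the log values. Serpina1a was at 0.01 under the replicate block and Serpina1b at 0.09 without HFD mouse 2. The number of genes called for diet, 8 as reported, was 14 with means of the log values, 0 with limma-trend on log2(CPM + 1) and on log2(CPM + 10) (where 46 and 66 genes had an unadjusted p under 0.05), 2 without a filter, 1 with a minimum of 50 UMIs, 23 with the replicate number as a block and 2 without the 5% of cells with most UMIs. Leaving out 1 mouse gave 0 to 123; it was 123 without HFD mouse 1 and 0 without any other mouse (37 to 205 at an unadjusted p under 0.05), so the Serpina3k call was lost there. With 1 LFD mouse left out, the lone LFD mouse was assumed to vary like the HFD mice. The Serpina3k call was also lost with log means, both limma-trend fits, other filters and both cell subsets. The subset without cells with non-hepatocyte marker UMIs left out 4 of the 5 cells of HFD mouse 1. The labels give same-numbered mice a shared number and nothing more. Over 2 pairs their deviations correlated at 0.04 and 0.09. With 2 LFD mice each value recurs with the opposite sign for the other LFD mouse. These values therefore cannot show whether same-numbered mice were handled together. The median log2 difference of all genes was -0.50 with log2(CPM + 1), -0.34 with log2(CPM + 10) and 0.15 without a filter, against -0.06. Genes called along the axis, 2 as reported, were 1 with a score without Cyp2e1 and Cyp2f2, 4 with library sizes, 1 without a filter and 0 to 166 with 1 mouse left out: 166 without HFD mouse 1, 1 without LFD mouse 1 and 0 without HFD mouse 2, HFD mouse 3 or LFD mouse 2 (40 to 118 at an unadjusted p under 0.05). The axis sign turned for Serpina3m in 2 of 8 and for Serpina6 in 4 of 5 alternatives that tested it. Interaction calls (limma voom), 0 as reported (7 at an unadjusted p under 0.05), were 0 to 4 with 1 mouse left out. Members with a higher mean share of positive cells in HFD mice, 2 in the thinned cells, were 2 to 4. They were not the same genes throughout. At 1728 UMIs they were Serpina3m and Serpina1d (1.86 points, HFD minus LFD). Without thinning they were Serpina3m and Serpina6 (10.7 points), and Serpina1d was at -1.26 points. The cause of these changes was not tested. In HFD mouse 1, with 5 cells, 1 UMI stands for 35.8 CPM and a count of 0 allows up to 108 CPM. The share of cells with Serpina3m differed by 22.5 points (HFD minus LFD) at 1728 UMIs and by 9.69 points at 1343 UMIs.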
